A study of Rattus norvegicus with 9 samples.

Results

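The genes described here encode the contractile apparatus and the energy supply of skeletal muscle fibres, and they were measured in RNA from rat bone. They are 46 genes of the 23026 in the deposited tables, chosen by name from the gene identifiers. The symbols of 45 matched directly, and Mylpf was found by its gene ID 24584 under the symbol Myl11, which is used below. All 46 passed the filter on low counts.

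The 9 libraries came from the bone of female Sprague-Dawley rats bought at 8 weeks of age, with 3 libraries from separate animals in each group. OVX rats had both ovaries removed and received the vehicle, CMC-Na (sodium carboxymethyl cellulose). OVX-AS-IV-High rats were ovariectomized in the same way and received AS-IV (astragaloside IV, a saponin of Astragalus) at 80 mg/kg by daily gavage. Sham rats kept their ovaries, lost a similar amount of fat at surgery and received vehicle. Treatment began 6 weeks after surgery and lasted 8 weeks in all groups. The sample labels give CMC-Na at 1%, 2% and 3% for Sham 1, 2 and 3, and at 1% for OVX 1, 2 and 3. The paper names the same vehicle concentration for Sham rats, OVX rats and the AS-IV solution, and describes no difference within Sham. An effect of the labelled concentration was not tested. A rat ovariectomized as a young adult is a model of estrogen loss rather than of ageing.

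Skeletal muscle shortens when myosin heavy chains pull on actin filaments inside repeated units called sarcomeres. Calcium released from the sarcoplasmic reticulum binds troponin and opens the filament to myosin. Fibres fall into fast and slow types, and most parts of this machinery exist as a fast and a slow gene: fast fibres use Myh4, Tnni2 and Atp2a1, for example, whereas slow fibres use Myh7, Tnni1 and Atp2a2. Bone contains no skeletal muscle fibres of its own, but muscles attach to the femur, so the RNA of a bone sample can hold a variable amount of muscle RNA. From textbook knowledge the 46 genes were divided into 14 fast fibre genes, 10 slow fibre genes and 22 genes shared by both fibre types. The shared genes comprise 12 sarcomere genes, 4 genes of calcium handling and 6 genes of energy metabolism.

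Promoter sequences are shown for the main fast and slow myosin genes and for the leading shared sarcomere and creatine kinase genes because they stand for the classes compared below: Myh4 and Myh7 parted across libraries, whereas Acta1 and Ckm kept close to the other shared genes. The RefSeq table of assembly GRCr8 held a promoter for 39 of the 46 genes. The sequence is the 250 bases before the transcription start, 5′ to 3′ on the strand of the gene. Capitals mark CAGCTG (an E-box bound by myogenic factors), CATTCC (the MCAT element), the CArG box and TATAAA, each searched on both strands.
Myh4, chr10:52421898-52422147, plus strand: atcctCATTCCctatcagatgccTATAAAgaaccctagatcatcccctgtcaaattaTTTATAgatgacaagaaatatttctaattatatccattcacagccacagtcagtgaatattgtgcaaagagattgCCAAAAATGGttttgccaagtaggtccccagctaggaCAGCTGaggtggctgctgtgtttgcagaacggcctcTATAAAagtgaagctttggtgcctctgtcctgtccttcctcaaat
Myh7, chr15:32438195-32438444, minus strand: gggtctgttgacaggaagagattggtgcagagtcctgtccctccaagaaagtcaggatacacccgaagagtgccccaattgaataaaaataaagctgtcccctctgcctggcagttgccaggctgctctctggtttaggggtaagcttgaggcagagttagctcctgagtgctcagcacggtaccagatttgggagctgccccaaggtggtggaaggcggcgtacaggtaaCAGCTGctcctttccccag
Acta1, chr19:68784195-68784444, minus strand: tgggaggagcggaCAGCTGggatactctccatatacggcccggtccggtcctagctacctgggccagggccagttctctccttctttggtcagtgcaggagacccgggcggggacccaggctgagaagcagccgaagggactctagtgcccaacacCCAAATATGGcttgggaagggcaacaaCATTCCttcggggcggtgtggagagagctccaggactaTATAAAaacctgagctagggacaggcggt
Ckm, chr1:88189211-88189460, plus strand: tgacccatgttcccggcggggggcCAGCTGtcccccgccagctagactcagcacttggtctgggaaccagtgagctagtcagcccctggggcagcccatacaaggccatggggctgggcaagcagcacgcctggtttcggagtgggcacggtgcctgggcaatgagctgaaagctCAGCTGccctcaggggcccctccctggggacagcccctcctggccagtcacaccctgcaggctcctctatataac

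The Myh4 promoter held CAGCTG 81 bases before the start, a CArG box at 118 bases, CATTCC at 245 bases and TATAAA at 45, 193 and 227 bases. In Acta1 (skeletal alpha actin) CAGCTG lay 237 bases, the CArG box 94 bases, CATTCC 67 bases and TATAAA 29 bases before the start. Ckm (muscle creatine kinase) held CAGCTG at 75 and 226 bases, and Myh7 held it at 19 bases. CAGCTG occurred in 13 of the 39 promoters (33.3%) and in 11.9% of all 27457 promoters of the same length. CATTCC occurred in 8 (20.5%, against 11.8% of all promoters) and TATAAA in 11 (28.2%, against 13.1%). A CArG box, the site of serum response factor, occurred in 4 (10.3%, against 1.501%), and a MEF2 box occurred in 4 (10.3%, against 0.572%). TATAAA and the MEF2 box can overlap. These are counts of letters and not of bound sites.

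Total counts per library lay between 34874880 and 37298250. Muscle RNA was present in all 9 libraries, but in very different amounts. The 46 genes took 2.02%, 1.56% and 0.336% of all counts in Sham 1, 2 and 3. Their share was 0.775%, 0.402% and 0.340% in OVX 1, 2 and 3, and OVX-AS-IV-High 1, 2 and 3 had 1.06%, 0.442% and 0.134%. The share thus varied within every group and the groups overlapped, but the highest shares, 2.02% and 1.56%, were both in Sham. The highest OVX share was 0.775%. The median gene of the 46 had an SD of 1.36 in log2 CPM over the 9 libraries, where the median of all genes tested was 0.267, and 98.2% of genes tested had a smaller SD than that member median. In bulk RNA, fewer muscle fibres in a sample and less of these RNAs per fibre cannot be told apart.

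**Figure D1:**
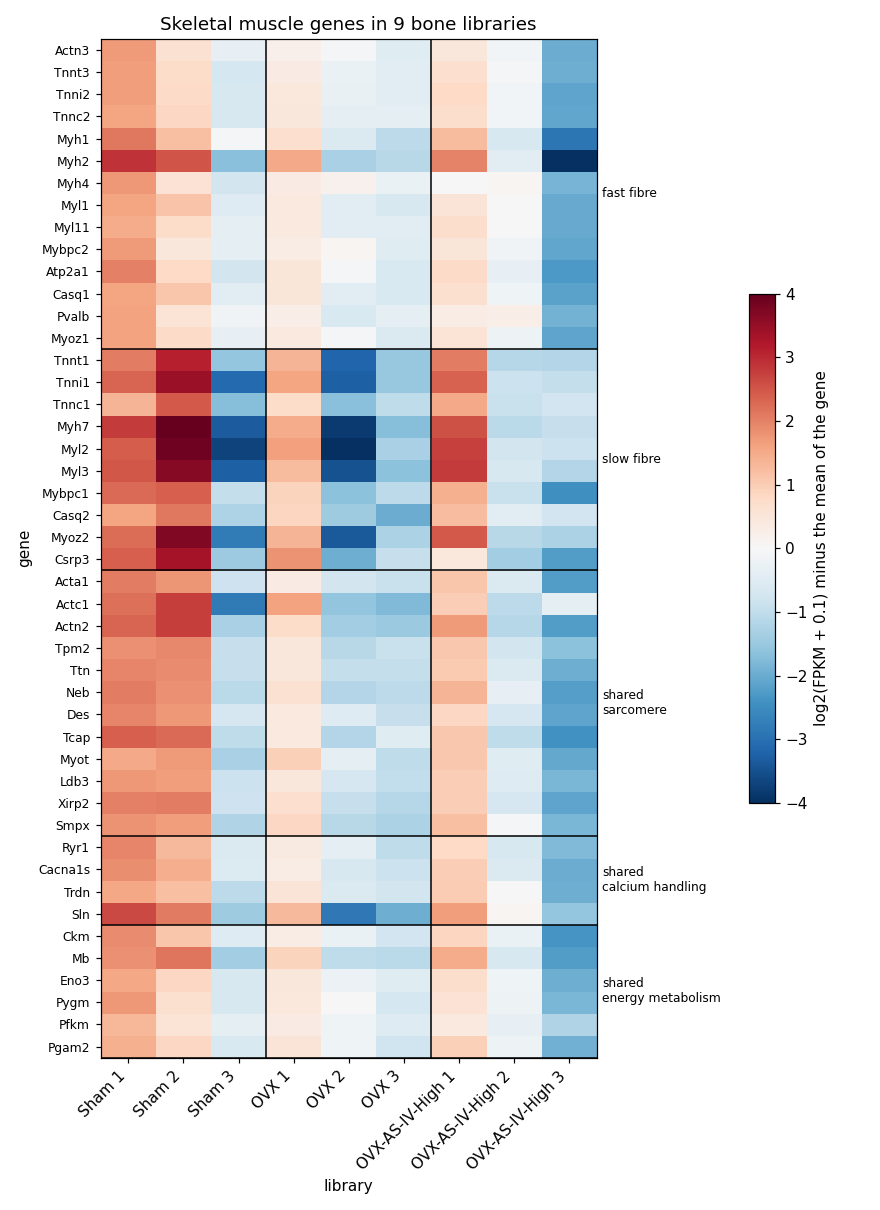
Each row is 1 of the 46 genes and each column 1 of the 9 libraries; colour gives log2(FPKM + 0.1) minus the mean of the gene over the libraries, cut at -4 and 4. Fast fibre genes are highest in Sham 1 and lowest in OVX-AS-IV-High 3, whereas slow fibre genes are highest in Sham 2.

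Fast fibre genes differed from slow fibre genes in where they peaked and in how widely they varied. The fast genes summed to 5022, 2782 and 1095 FPKM in Sham, to 2099, 1291 and 1147 FPKM in OVX, and to 2517, 1509.8 and 379 FPKM in OVX-AS-IV-High. The slow genes summed to 734, 1545 and 43.0 FPKM in Sham, to 399.8, 27.6 and 65.3 FPKM in OVX, and to 719, 85.6 and 73.7 FPKM in OVX-AS-IV-High. The fast sum exceeded the slow sum in every library. The highest fast sum was 13.3 times the lowest and the highest slow sum 56.0 times the lowest. All 14 fast genes had their highest FPKM in Sham 1 and their lowest in OVX-AS-IV-High 3. All 10 slow genes had their highest FPKM in Sham 2, and 6 of them had their lowest in OVX 2.

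The ratio of fast to slow FPKM was 6.84, 1.80 and 25.4 in Sham. It was 5.25, 46.8 and 17.6 in the OVX libraries, and the OVX-AS-IV-High libraries had 3.503, 17.6 and 5.14. Sham 2 was the library richest in slow fibre RNA, with 35.7% of the fast and slow sum in slow genes, and OVX 2 was the poorest, with 2.09%. The libraries richest in muscle RNA had low ratios: Sham 1 (6.84), Sham 2 (1.80), OVX-AS-IV-High 1 (3.503) and OVX 1 (5.25). Of the poorer libraries, Sham 3, OVX 2, OVX 3 and OVX-AS-IV-High 2 had 25.4, 46.8, 17.6 and 17.6. The exception was OVX-AS-IV-High 3, with the lowest fast sum of the 9 libraries but only the sixth highest slow sum. Its slow share of 16.3% was close to the 16.0% of OVX 1. The link between muscle amount and ratio was not tested. Relative to the 22 shared genes, log2 of the fast sum stayed between -0.73 and 0.57, whereas log2 of the slow sum ran from -5.09 to -1.57.

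The mean log2 ratio of fast to slow was 2.76 ± 1.91 (SD, n = 3) in Sham. OVX had a mean of 4.02 ± 1.58 and OVX-AS-IV-High a mean of 2.77 ± 1.22 (SD, n = 3). The difference was 1.26 for OVX minus Sham and -1.26 for OVX-AS-IV-High minus OVX on the log2 scale, both less than the pooled SD between libraries of a group (1.75 and 1.41). The groups overlapped in both comparisons. Matched by replicate numbers 1, 2 and 3, the log2 ratio of OVX-AS-IV-High minus OVX was -0.58, -1.41 and -1.77 (mean -1.26 ± 0.610, SD, 3 pairs). The rats were separate animals and nothing in the design pairs the numbers, so the single sign and the smaller SD rest on this matching. OVX 3 and OVX-AS-IV-High 2, for example, had log2 ratios of 4.13 and 4.14. The matching was added after the data were seen. The first difference was 0.30 without Sham 2, 0.50 without OVX 2, 2.08 without OVX 1 and 2.21 without Sham 3. The second was -0.49 without OVX 2, -0.77 without OVX-AS-IV-High 1, -1.94 without OVX-AS-IV-High 2 and -2.07 without OVX 1. A score over genes chosen with results known was not tested.

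**Figure D2:**
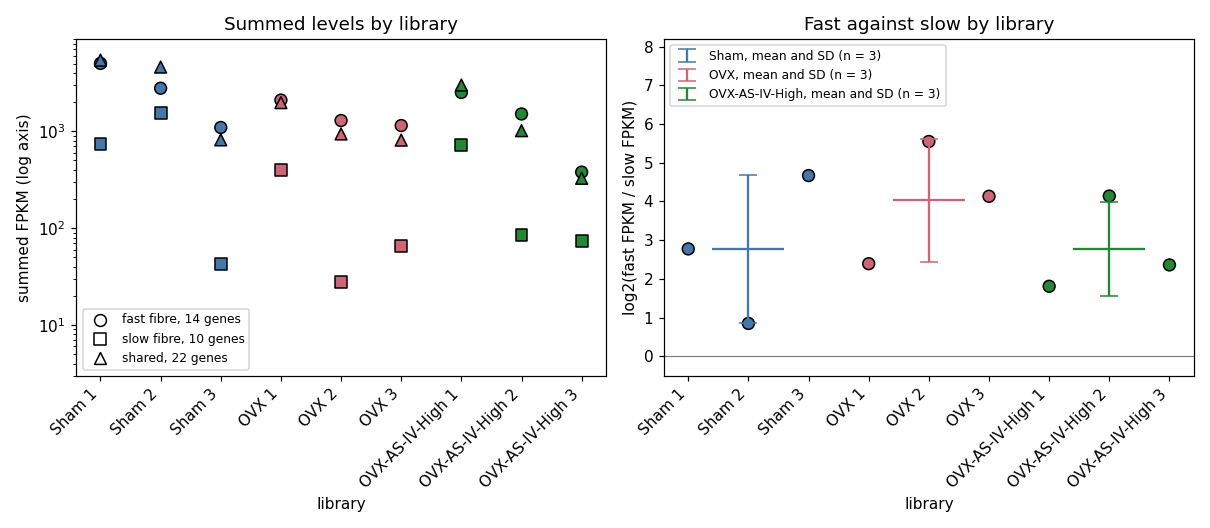
Left: summed FPKM (log axis) of the 14 fast, 10 slow and 22 shared genes in each library, coloured by group. Right: log2 of the fast over the slow sum per library, with the mean and SD of each group (n = 3), whose bars overlap between all groups.

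Myosin heavy chains are the motors of the sarcomere, and the adult limb fibre types are defined by them. Myh4 (type IIB, the fastest) was measured at 251, 114 and 46.2 FPKM in Sham, at 94.9, 85.9 and 62.8 FPKM in OVX, and at 75.7, 80.1 and 20.9 FPKM in OVX-AS-IV-High. Myh7 (type I, slow) was measured at 53.0, 120.1 and 0.668 FPKM in Sham, at 21.4, 0.438 and 2.25 FPKM in OVX, and at 44.7, 3.52 and 3.96 FPKM in OVX-AS-IV-High. Myh4 exceeded Myh7 in 8 of 9 libraries and lay level with it in Sham 2, where the ratio was 0.949. In OVX 2 the ratio reached 196, with 98 counts of Myh7.

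Of the FPKM summed over Myh1, Myh2, Myh4 and Myh7, Myh7 made up 11.02%, 35.3% and 0.852% in Sham. It made up 11.8%, 0.400% and 2.73% in the OVX libraries, and the OVX-AS-IV-High libraries had 20.4%, 3.27% and 13.6%. Myh4 made up between 33.5% (Sham 2) and 78.4% (OVX 2), and Myh1 (type IIX) between 13.98% and 37.9%. Myh2 (type IIA, the fast oxidative form) was listed with the fast genes, yet its level varied 233-fold, more than that of any other fast gene. It made up 9.23%, 10.2%, 9.42% and 10.9% in Sham 1, Sham 2, OVX 1 and OVX-AS-IV-High 1 and at most 4.08% in the other libraries. Myh2 and Myh7 parted in OVX-AS-IV-High 3, where Myh2 made up 0.654% with 42 counts while Myh7 stood at 13.6%. Myh1, Myh2 and Myh4 are close in sequence, so their shares depend on how the authors' counting divided shared reads.

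**Figure D3:**
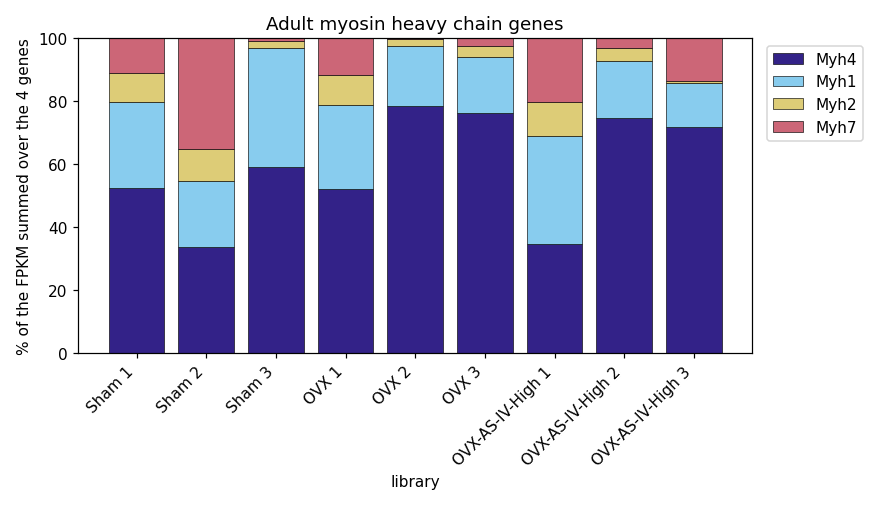
Stacked bars give the percent of the FPKM summed over the 4 adult myosin heavy chain genes in each library. Myh4 is the largest part in all libraries except Sham 2, where Myh7 holds 35.3% and Myh4 33.5%.

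The troponin complex carries the calcium switch, and its 3 subunits have fast and slow genes. Tnni2, the fast inhibitory subunit, stood at 730.3, 388 and 146 FPKM in Sham, at 306, 189 and 166 FPKM in OVX, and at 397, 214 and 53.3 FPKM in OVX-AS-IV-High. Tnni1, its slow counterpart, stood at 64.6, 141 and 1.40 FPKM in Sham, at 38.2, 1.24 and 4.39 FPKM in OVX, and at 66.4, 7.09 and 6.51 FPKM in OVX-AS-IV-High. The fast subunit led in every library, from 2.75 times the slow one in Sham 2 to 152 times in OVX 2.

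Tnnt3, the fast tropomyosin-binding subunit, was measured at 621, 324 and 119.6 FPKM in Sham, at 242, 159.6 and 144 FPKM in OVX, and at 309, 189 and 49.7 FPKM in OVX-AS-IV-High. Tnnt1 was measured at 180.4, 379 and 14.8 FPKM in Sham, at 112, 4.72 and 15.2 FPKM in OVX, and at 182, 19.6 and 19.2 FPKM in OVX-AS-IV-High. In Sham 2 the slow gene was the higher of the pair. Tnnc2, the fast calcium-binding subunit and the most abundant fast gene, had 963, 577 and 209 FPKM in Sham, 441, 255 and 247 FPKM in OVX, and 526, 301 and 76.3 FPKM in OVX-AS-IV-High. Tnnc1, the slow and cardiac form, had 83.0, 179 and 9.96 FPKM in Sham, 54.7, 10.1 and 16.0 FPKM in OVX, and 92.7, 17.5 and 19.2 FPKM in OVX-AS-IV-High. Tnnc1 varied 18.0-fold and Tnni1 114-fold, so the slow troponins differed among themselves.

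Myosin light chains sit on the neck of the motor. Myl11, the fast regulatory chain, was measured at 769, 453 and 209.5 FPKM in Sham, at 355, 199.5 and 198 FPKM in OVX, and at 443, 274 and 66.9 FPKM in OVX-AS-IV-High. Myl2, the slow and ventricular regulatory chain, was measured at 67.6, 187 and 0.880 FPKM in Sham, at 39.8, 0.658 and 5.13 FPKM in OVX, and at 84.6, 7.64 and 6.87 FPKM in OVX-AS-IV-High. Their ratio had the highest value of any pair, 303 in OVX 2, where Myl2 had 27 counts. For the essential chains, Myl1 (fast) stood at 371, 272 and 85.6 FPKM in Sham, at 163, 91.2 and 79.9 FPKM in OVX, and at 177, 121 and 30.7 FPKM in OVX-AS-IV-High. Myl3 (slow) stood at 125, 275 and 2.21 FPKM in Sham, at 52.9, 1.86 and 7.03 FPKM in OVX, and at 155, 14.1 and 9.73 FPKM in OVX-AS-IV-High. Myl1 and Myl3 lay level in Sham 2, at a ratio of 0.988, and near level in OVX-AS-IV-High 1, at 1.14.

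Myosin-binding protein C stiffens the thick filament. Mybpc2 (fast) was measured at 55.9, 23.4 and 13.2 FPKM in Sham, at 20.7, 18.0 and 12.1 FPKM in OVX, and at 23.5, 15.5 and 3.97 FPKM in OVX-AS-IV-High. Mybpc1 (slow) was measured at 79.8, 86.1 and 8.37 FPKM in Sham, at 30.5, 5.17 and 7.93 FPKM in OVX, and at 44.0, 8.71 and 2.93 FPKM in OVX-AS-IV-High. This pair alone of the 10 had the slow gene ahead in 4 libraries, and Mybpc1 had the smallest SD of the 10 slow genes relative to the shared genes (0.550 on the log2 scale). Calsarcins anchor the Z-disc. Myoz1 (fast) stood at 147, 82.0 and 38.4 FPKM in Sham, at 63.9, 45.6 and 32.7 FPKM in OVX, and at 70.8, 41.7 and 11.05 FPKM in OVX-AS-IV-High. Myoz2 (slow) stood at 27.9, 77.5 and 0.751 FPKM in Sham, at 15.2, 0.471 and 2.38 FPKM in OVX, and at 32.1, 2.65 and 2.37 FPKM in OVX-AS-IV-High. The Myoz1 level was close to that of Myoz2 in Sham 2 (ratio 1.06) and 96.8 times as high in OVX 2.

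Calsequestrins store calcium in the sarcoplasmic reticulum and SERCA pumps return it there. Casq1 (fast) had 81.0, 58.3 and 20.1 FPKM in Sham, 37.6, 19.6 and 17.4 FPKM in OVX, and 41.6, 23.7 and 6.09 FPKM in OVX-AS-IV-High. Casq2 (slow and cardiac) had 6.31, 9.20 and 0.820 FPKM in Sham, 3.83, 0.707 and 0.442 FPKM in OVX, and 4.93, 1.49 and 1.16 FPKM in OVX-AS-IV-High. Casq1 led throughout, by 5.23 to 39.4 times. Atp2a1 (SERCA1, fast) had 466, 201 and 69.8 FPKM in Sham, 163, 109 and 75.6 FPKM in OVX, and 196, 92.1 and 23.5 FPKM in OVX-AS-IV-High. Atp2a2 (SERCA2) is no slow member of the 46, since other cell types use it too, and it varied less than the other partners, with 54.8, 85.1 and 33.4 FPKM in Sham, 46.1, 32.3 and 31.5 FPKM in OVX, and 54.9, 33.8 and 32.6 FPKM in OVX-AS-IV-High. Over the 10 pairs, Sham 2 had the lowest fast to slow ratio in 8 and OVX 2 the highest in 8, and slow exceeded fast in 4 pairs in Sham 2 and in at most 1 pair in any other library.

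**Figure D4:**
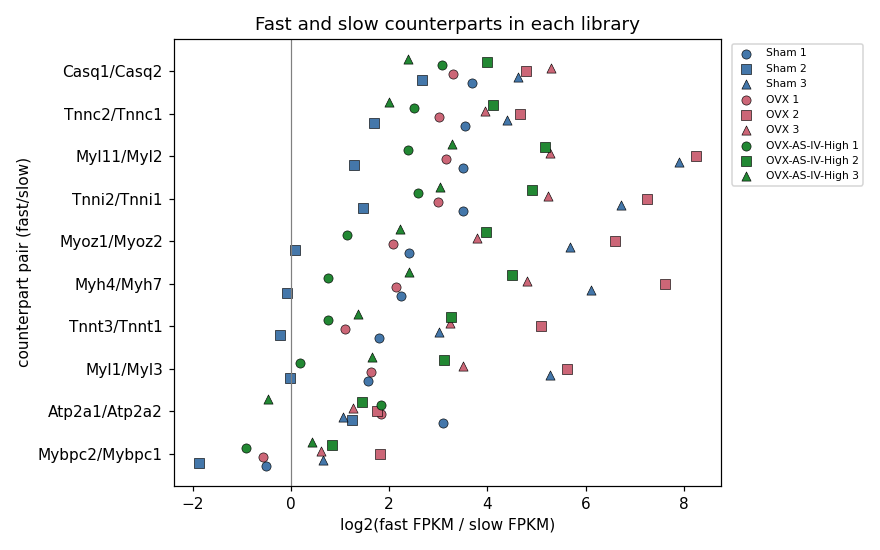
Log2 of fast over slow FPKM for the 10 counterpart pairs (rows), with 1 point per library; colour gives the group and shape the replicate. Sham 2 (blue square) lies farthest left in 8 pairs and OVX 2 (red square) farthest right in 8.

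Relative to the summed shared genes, the shared genes varied less by median than the slow genes did. That sum is made of the shared genes themselves, which favours them. It does not show how close the slow genes kept to each other. Acta1, the actin of the thin filament and the most abundant of the 46, was measured at 1825, 1519 and 252 FPKM in Sham, at 551, 266 and 238 FPKM in OVX, and at 957, 297 and 94.5 FPKM in OVX-AS-IV-High. Tcap (telethonin, a cap on titin at the Z-disc) had 556, 515 and 52.3 FPKM in Sham, 139, 47.6 and 75.7 FPKM in OVX, and 223, 53.0 and 19.7 FPKM in OVX-AS-IV-High. Both were highest in Sham 1 and lowest in OVX-AS-IV-High 3, but Sham 3 lay among the OVX values for Acta1 and Tcap. Relative to the summed shared genes, the SD of the log2 ratio over the 9 libraries was smallest in Cacna1s (0.119, the voltage sensor of excitation), Des (0.130, desmin), Ldb3 (0.135, a Z-disc protein) and Acta1 (0.142). It was largest in Myl2 (2.05), Myh7 (1.98), Actc1 (1.93), Myl3 (1.75) and Myoz2 (1.66). The median SD was 0.464 over the fast genes and 1.46 over the slow genes. Over the shared genes it was 0.293 for sarcomere, 0.265 for calcium handling and 0.444 for energy metabolism. These SDs share libraries and depth and are descriptive.

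Actc1, the cardiac actin, was the exception among shared sarcomere genes, with 198, 289 and 1 counts in Sham, 131, 10 and 8 counts in OVX, and 87, 17 and 30 counts in OVX-AS-IV-High. Its single count in Sham 3 lies at the detection floor of 3 counts, and its coding sequence is close to that of Acta1, so a small share of misassigned reads could move it. In calcium handling, Trdn (triadin) was the most abundant gene, with 21.0, 16.5 and 3.44 FPKM in Sham, 10.1, 4.78 and 4.28 FPKM in OVX, and 14.5, 7.30 and 1.77 FPKM in OVX-AS-IV-High. Sln (sarcolipin, an inhibitor of SERCA) had 13.8, 9.21 and 0.720 FPKM in Sham, 5.31, 0.207 and 0.466 FPKM in OVX, and 6.95, 2.26 and 0.656 FPKM in OVX-AS-IV-High. Sln varied 66.7-fold, where the other 3 calcium genes varied between 11.9-fold and 16.4-fold.

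Among energy genes, Mb (myoglobin, the oxygen store of oxidative fibres) stood at 703, 878 and 76.3 FPKM in Sham, at 367, 97.5 and 94.9 FPKM in OVX, and at 557, 127 and 42.6 FPKM in OVX-AS-IV-High. Ckm stood at 891, 521 and 169.7 FPKM in Sham, at 296, 202 and 143 FPKM in OVX, and at 442, 201 and 46.5 FPKM in OVX-AS-IV-High. Mb peaked in Sham 2, as the slow genes did, and Ckm in Sham 1, as the fast genes did. The other 4 energy genes, which encode the glycolytic and glycogen enzymes Eno3, Pygm, Pfkm and Pgam2, all peaked in Sham 1. Pfkm, which has other tissues as a source as well, varied least of all 46 genes (5.82-fold).

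The comparison of OVX with Sham addressed the effect of ovariectomy. None of the 46 genes passed the thresholds of p under 0.05 and an absolute log2FC over 1 in edgeR's quasi-likelihood test (0 of 46), where 3.11% of the 16874 genes tested did. None had an unadjusted p under 0.05 (0 of 46, against 16.4% of genes tested), and 0 had an adjusted p under 0.05, as for all genes tested (0%). By DESeq2 3 genes passed (2.97% of all genes in that fit), and by limma on log2(FPKM + 1) or log2(FPKM + 0.1) 0. The groups overlapped for all 46 genes, where 23.3% of genes tested did not overlap.

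The direction was nevertheless the same throughout, with log2FC below 0 in 46 of 46 genes, against 50.8% of all genes, and under every alternative run. The 46 genes varied together from library to library, so they are not 46 independent observations. Their median log2FC was -1.56, against -0.01 over all genes, and the median by class was -0.996 for fast, -2.21 for slow, -1.78 for sarcomere, -1.56 for calcium and -0.92 for energy genes. The smallest p belonged to Tcap (log2FC -2.12, SE 0.984, adjusted p = 0.321 by edgeR). The lowest log2FC belonged to Myh7 (-2.88, SE 1.76, adjusted p = 0.418) and the highest to Pfkm (-0.76, SE 0.474, adjusted p = 0.429). Acta1 had a log2FC of -1.79 (SE 0.868), Ckm of -1.32 (SE 0.756) and Myh4 of -0.77 (SE 0.600). The median SE of the 46 genes was 0.856, where the median over all genes was 0.187.

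The count of OVX vs. Sham moved when single libraries were left out, as it did under some other fits given below. Without Sham 3, the Sham library poor in muscle RNA, 23 of the 46 genes passed the thresholds, against 6.20% of all genes tested in that fit. Without OVX 1, the OVX library richest in muscle RNA, 17 did, against 4.52% of all genes. Without any other library the count stayed at 0. No member had an adjusted p under 0.05 in any of these fits.

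**Figure D5:**
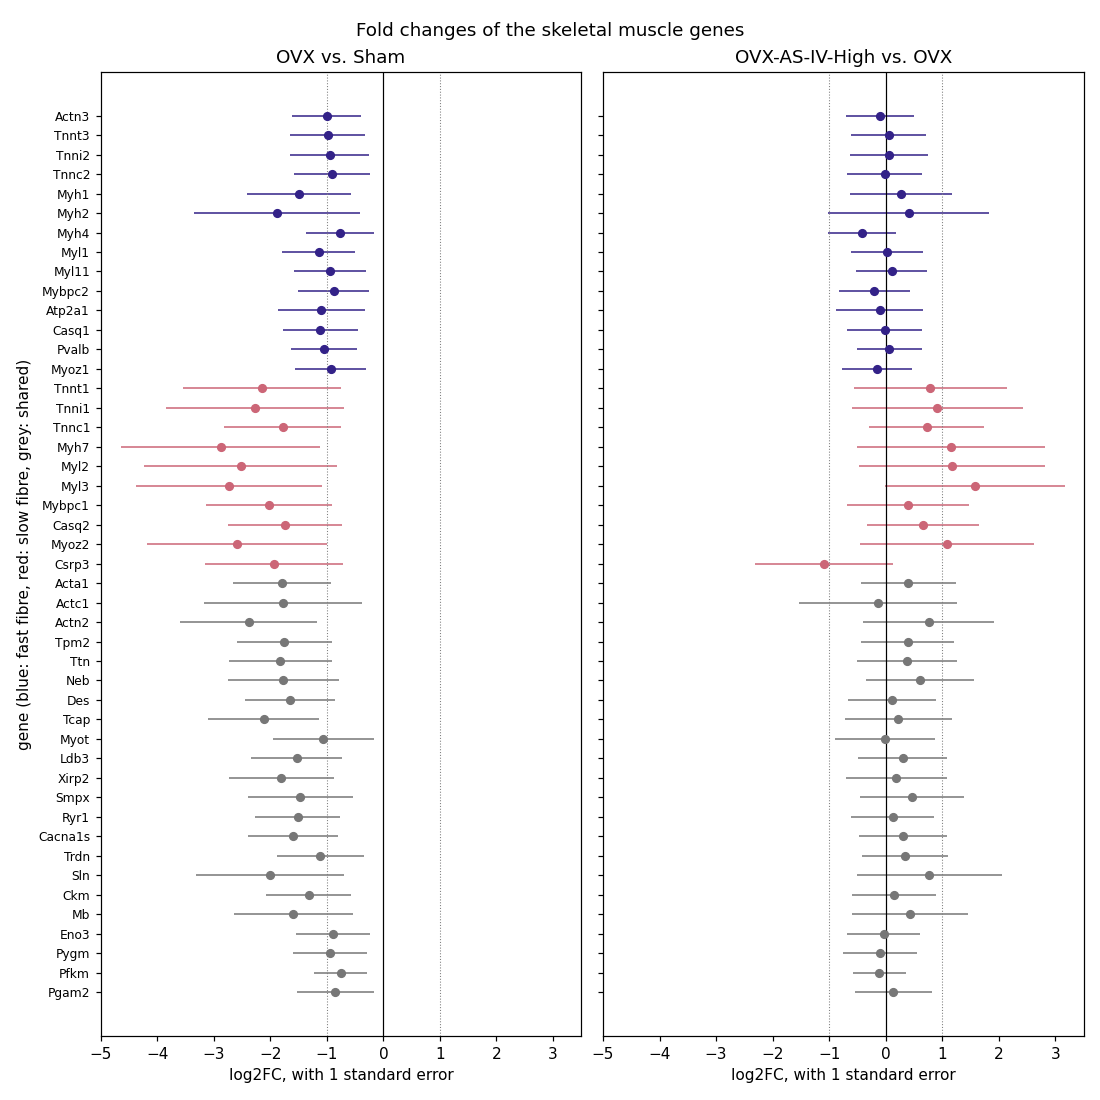
Log2FC of each of the 46 genes with 1 standard error by edgeR, for OVX vs. Sham (left) and OVX-AS-IV-High vs. OVX (right); dotted lines mark the fold threshold of 1. All 46 points lie below 0 on the left, and slow fibre genes (red) have wide errors.

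In OVX-AS-IV-High vs. OVX, which addressed the treatment, 0 of 46 genes passed the thresholds by edgeR, where 0.83% of genes tested did, and 0 had an unadjusted p under 0.05, where 6.45% did. DESeq2 and limma also gave 0. The groups overlapped for all 46 genes, where 12.7% of genes tested did not overlap. The smallest adjusted p was 0.945. The median log2FC was 0.20 and 13 of 46 genes lay below 0, against 53.3% of genes tested. This direction was not stable. With the replicate block (replicate number added to the fit), the median was -0.18 with 32 genes below 0 and still 0 past the thresholds. By limma the median was -0.15 on log2(FPKM + 1). Without OVX-AS-IV-High 1 all 46 genes lay below 0 (median -0.77), and without OVX 1 only 2 did (median 0.82). In the fit without OVX 1, 1 of the 46 genes passed the thresholds, against 1.22% of all genes tested. Without OVX 3 the median was -0.02, without OVX 2 it was 0.01, without OVX-AS-IV-High 2 it was 0.41 and without OVX-AS-IV-High 3 it was 0.68.

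The log2FC of that comparison ran from -1.10 in Csrp3 (SE 1.22) to 1.59 in Myl3 (SE 1.59). By class, 9 of 10 slow genes and 7 of 14 fast genes lay above 0. The sign of both end genes rested on a single library: Myl3 had -0.77 without OVX-AS-IV-High 1, and Csrp3 had 0.79 without OVX 1.

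Csrp3 (muscle LIM protein, a Z-disc protein of slow and cardiac muscle that responds to stretch) was the only gene of the 46 past the thresholds in OVX-AS-IV-High vs. Sham, a count of 1 where 3.15% of genes tested passed. It had 47.0, 91.0 and 3.19 FPKM in Sham, 30.9, 2.22 and 4.59 FPKM in OVX, and 11.9, 3.35 and 1.80 FPKM in OVX-AS-IV-High. The log2FC of Csrp3 was -3.03 (SE 1.28, adjusted p = 0.266 by edgeR), although Sham 3 lay within the range of the treated group. The call was lost without Sham 1 (log2FC -3.05), Sham 2 (-2.08), OVX-AS-IV-High 2 (-2.76) or OVX-AS-IV-High 3 (-2.60). The count of genes past the thresholds was then 0, but 28 without OVX-AS-IV-High 1 (5.48% of all genes in that fit) and 18 without Sham 3 (5.02% of all genes). All 46 genes lay below 0 in this comparison, against 51.6% of genes tested, with a median of -1.18, and it shares its Sham libraries with OVX vs. Sham.

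As a share of the slow genes of its own library, Csrp3 was lower in the treated libraries, a gene singled out after its values were seen. It made up 6.40%, 5.89% and 7.41% of the slow sum in Sham. The OVX libraries had 7.74%, 8.04% and 7.02%, and the OVX-AS-IV-High libraries 1.66%, 3.92% and 2.45%. Every treated library lay below every Sham and OVX library. Of the 46 genes as shares of the sum of their own class, 2 (4.35%) had no overlap between OVX-AS-IV-High and OVX, Csrp3 lower and Myl11 higher. Myl11 moved little, from 16.9%, 15.5% and 17.3% of the fast sum in OVX to 17.6%, 18.2% and 17.7% in OVX-AS-IV-High. The shares of 6 genes (13.0%) did not overlap between OVX-AS-IV-High and Sham, and those of 3 (6.52%) did not between OVX and Sham. Class shares exist only for the 46 genes, so no share over all genes can stand beside these counts. By CPM, an unlike measure, 12.7% of genes tested did not overlap between OVX-AS-IV-High and OVX. The class shares were not tested.

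Other genes of the muscle fibre were examined from a list of 50, of which 49 were tested. In OVX vs. Sham 48 of the 49 had a log2FC below 0, with a median of -1.24, and 2 passed the thresholds, both lower, where 2.03% of genes tested passed as lower. DESeq2 gave 6 of 48 and limma on log2(FPKM + 1) gave 1 of 49. A count of 2 is near the share over all genes, so the called genes are given as values only. Mylk2, the skeletal myosin light chain kinase, had 7049, 4935 and 4097 counts in Sham, 3088, 2520 and 2138 counts in OVX, and 2941, 2099 and 1829 counts in OVX-AS-IV-High. The Sham libraries lay above all others. Within each group the Mylk2 counts fell in the order of the muscle share. Across groups they did not: Sham 3, with 0.336% of counts in the 46 genes, exceeded OVX 1 (0.775%) and OVX-AS-IV-High 1 (1.06%). Its log2FC was -1.12 (SE 0.236, adjusted p = 0.138 by edgeR) in OVX vs. Sham, and -0.91 without Sham 1, under the fold threshold. In OVX-AS-IV-High vs. Sham it was -1.27 (SE 0.237, adjusted p = 0.10 by edgeR). The SE of Mylk2 was well below the median of 0.856 of the 46 genes, whose groups overlapped. Lmod2 (leiomodin 2, which elongates thin filaments) had a log2FC of -2.56 in OVX vs. Sham with overlapping groups, and its call was lost without Sham 1, Sham 2, OVX 2 or OVX 3 (log2FC between -2.50 and -1.86). Between the treated and the OVX rats, 0 of the 49 passed by edgeR or limma and 0 of the 48 with a p by DESeq2, and 0 had an unadjusted p under 0.05 by edgeR.

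Markers of other muscle states were sparse. Of 6 developmental genes tested, Myh3 (embryonic myosin, 2 to 454 counts) and Myh8 (perinatal myosin, 4 to 161 counts) passed in OVX vs. Sham, with log2FC of -2.89 and -1.99 and overlapping groups, where 2.03% of genes tested passed as lower. DESeq2 gave 3 of these 6 genes, limma on log2(FPKM + 1) gave 0 and limma on log2(FPKM + 0.1) gave 1. Each call was lost without Sham 1, Sham 2, OVX 2 or OVX 3 (Myh3 between -2.85 and -2.13, Myh8 between -2.19 and -0.92). Of 7 genes of satellite cells and myogenic regulators, 0 passed by edgeR, DESeq2 or limma and 0 had an unadjusted p under 0.05. The 8 genes listed there summed to 22.7 to 44.8 FPKM, whereas Pax7, the marker of satellite cells, had 0 to 10 counts. Of 6 genes of the neuromuscular junction in OVX vs. Sham, Rapsn passed by edgeR (log2FC -1.05), but not without Sham 1 (-0.92) or OVX 3 (-0.90). DESeq2 gave 1 of the 6 and limma 0, where 2.03% of genes tested passed as lower by edgeR. In OVX vs. Sham, 0 of 4 heart genes passed and 0 had an unadjusted p under 0.05 by edgeR or limma. By DESeq2, which gave 3 of them a p, both counts were also 0. In OVX-AS-IV-High vs. Sham 1 heart gene passed by edgeR, where 3.15% of genes tested did, and 1 by DESeq2. By limma it was 0 on log2(FPKM + 1) and 1 on log2(FPKM + 0.1). Heart genes summed to 0.518 to 5.04 FPKM, and Myh6, which is close in sequence to Myh7, had 590, 516 and 1 counts in Sham.

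Smooth muscle genes, which are expressed in vessel walls, had lower sums in OVX and OVX-AS-IV-High than in Sham. They summed to 86.9 to 169 FPKM in Sham, 33.7 to 73.6 FPKM in OVX and 43.8 to 82.4 FPKM in OVX-AS-IV-High, so Sham did not overlap the other groups. Of the 7, 6 passed the thresholds in OVX vs. Sham, all lower, where 2.03% of genes tested passed as lower. DESeq2 gave 6 of 7 and limma on log2(FPKM + 1) gave 4. The called genes included Myh11 (log2FC -1.55, SE 0.402, adjusted p = 0.153 by edgeR), Cnn1 (-1.90), Tagln (-1.28), Acta2 (-1.35) and Lmod1 (-1.71). Tagln stood at -0.97 without OVX 3, under the fold threshold, and Lmod1 lost its call without Sham 1 (-1.26). Bone genes were abundant in all libraries, with the 10 osteoblast and osteocyte genes at 1568, 2108 and 3846 FPKM in Sham, 3492, 5776 and 4901 FPKM in OVX, and 1753, 4740 and 3329 FPKM in OVX-AS-IV-High. The libraries with the highest muscle sums, Sham 1, Sham 2 and OVX-AS-IV-High 1, had the lowest osteoblast sums. The part of the smooth muscle and bone values in the muscle values was not tested. In OVX vs. Sham 1 of the 10 passed as higher, as did 4 of 6 adipocyte genes, where 1.08% of genes tested passed as higher.

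The genes most like the 46 were taken as those whose log2 CPM kept the most constant distance from the summed members over the 9 libraries, among 14479 genes with a mean CPM above 1. Outside all lists these were Tmem38a (SD of the difference 0.1003, a potassium channel of the sarcoplasmic reticulum), Hjv (0.142, hemojuvelin), Fitm1 (0.163), Stac3 (0.163, a partner of the calcium channel), Ankrd23 (0.166), Asb12 (0.215), Rbfox1 (0.221), Myoz3 (0.224), Usp13 (0.226) and Synm (0.232, synemin). The median SD was 1.28 over all these genes and 0.399 over the 46 themselves. Of the 100 genes nearest to the summed members, 23 were members, 21 were further fibre genes and 55 were in no list. Tmem38a kept a more constant distance than any of the 46 genes.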

How the data were processed

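Poly(A) RNA from bone was sequenced in 9 libraries, 3 each of Sham, OVX and OVX-AS-IV-High. Per the labels and methods, reads were filtered with NGS QC Toolkit v2.3.3, aligned with Tophat and Bowtie2 to mRatBN7.2 and quantified with eXpress. The authors deposited unnormalized whole-number counts and, for the same genes, FPKM values; how the eXpress estimates became whole numbers is not given in the sources used here.

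Counts were tested with edgeR 4.0.16 (quasi-likelihood, TMM, minimum count of 10, all 9 libraries in a single fit) in R 4.3.3, with Benjamini-Hochberg adjustment over all genes tested. Alternatives used DESeq2 1.42.0 and limma 3.58.1. The tests were tested on simulated data. FPKM served for sums and ratios between genes. Genes were at the detection floor at 3 counts or fewer. Named genes were the fast and slow counterparts, members past the thresholds, the 2 most abundant of each class, the 5 that deviated most from the shared genes, the members at either end of a comparison, up to 5 called genes of each other list and the 10 genes most like the members. The members and lists were chosen with earlier results of these data known. Tendon, osteoclast, erythroid, neutrophil and B lineage lists were also run in OVX vs. Sham, with 0 genes past the thresholds by edgeR, DESeq2 or limma and, by edgeR, an unadjusted p under 0.05 in 0 of 5, 0 of 6, 2 of 7, 2 of 6 and 5 of 6 genes tested, against 16.4% of all genes. Myl6b, Myl7, Nppa and Nppb were not analysed here.

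Whether replicate numbers pair libraries was read from correlations of deviations from group means, without the 46 genes. Matching numbers of OVX and OVX-AS-IV-High gave 0.287, 0.151 and 0.119, but OVX-AS-IV-High 3 with OVX 2 gave 0.164. The rats were separate animals divided at random into groups, so nothing in the design pairs the numbers. The correlations do not establish pairing, and values by replicate number rest on a matching only.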

Additional observations from a re-analysis of the deposited data

How the results depend on the processing

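The count of the 46 genes past the thresholds depended on the fit; the cause was not tested. In OVX vs. Sham (0) it was 3 with DESeq2, 4 with no filter on low counts and 10 with only the groups compared. Of all genes in these fits, 2.97%, 3.44% and 3.13% passed. The count of the 46 genes stayed at 0 with RLE size factors, with library sizes without the members and with limma at both pseudocounts. With a library left out, it ranged from 0 to 23 in OVX vs. Sham and, for the treated rats, from 0 to 1 against OVX and from 0 to 28 against Sham, where the main count was 1 and limma gave 0 at both pseudocounts. The replicate block gave 16 for OVX (4.18% of all genes in that fit) and 29 for OVX-AS-IV-High (4.21%), each against Sham. Nothing in the design pairs these libraries by number (correlations 0.182, -0.135 and 0.246, and 0.297, -0.149 and 0.414). The block changed no call of the 46 genes between the treated and OVX rats. The mean fast minus slow difference within replicate numbers, -1.26, equals the difference of group means by arithmetic, so it is no check. No setting gave a member an adjusted p under 0.05. For OVX-AS-IV-High vs. OVX, the log2FC of Myl3 turned to -0.77 without OVX-AS-IV-High 1 (range with a library left out -0.77 to 3.79) and that of Csrp3 to 0.79 without OVX 1 (range -2.26 to 0.79). The fast minus slow difference kept its sign, from 0.30 to 2.21 (OVX minus Sham) and from -2.07 to -0.49 (OVX-AS-IV-High minus OVX) with a library left out. It was 1.15 and -1.44 as the mean of the pairs. Of 280 alternative values of 20 named gene differences, 232 kept direction and call, 32 lost the call, 14 gained it and 2 reversed. Slow genes at few counts (Myl2 27, Myoz2 22) are limited by depth, and the 3 libraries of each group limit every test.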
